A study of Rattus norvegicus with 6 samples.

Results

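The 9 BMP and GDF ligands Bmp2, Bmp3, Bmp4, Bmp5, Bmp6, Bmp7, Gdf5, Gdf6 and Gdf10 were followed by symbol in a table of 30498 rat genes, and each was found in exactly 1 row. RNA sequencing had been done on cultured rat mesenchymal stem cells (MSC), the stromal cells that grow out of bone marrow, in 3 rcMSC libraries from cranial bone marrow and 3 rbMSC libraries from the marrow of femurs and tibias. All 6 libraries carried the genotype label WT, and no treatment was named for either group. The labels do not state strain, age, passage number or whether the replicates were separate animals or cultures, and the p-values therefore reflect library-to-library spread that may be technical. The design names a single comparison, rcMSC with rbMSC, as a profiling of gene expression.

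Bone morphogenetic proteins (BMP) and growth and differentiation factors (GDF) are secreted dimers of the TGF-beta superfamily. They are cut from longer precursors by proprotein convertases and bind pairs of type I and type II serine/threonine kinase receptors. Many of them, though not all, lead to phosphorylation of Smad1, Smad5 and Smad9, which enter the nucleus with Smad4. In the skeleton many are known for inducing bone and cartilage. Secreted antagonists such as noggin and chordin bind several of them outside the cell. By sequence the 9 genes fall into the pair Bmp2 and Bmp4, the trio Bmp5, Bmp6 and Bmp7, the pair Gdf5 and Gdf6, and the pair Bmp3 and Gdf10. In the gene ontology terms of the deposited table, 7 of the 9 were annotated, all 7 with SMAD protein signal transduction and 5 with the BMP signaling pathway. Bmp3 and Gdf10 were the annotated members that lacked the term for the BMP signaling pathway, and Gdf10 alone carried negative regulation of osteoblast differentiation, while it also carried the positive regulation term together with Bmp4, Bmp6 and Bmp7.

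Library totals ranged from 21340290 to 26928079 counts. The library rcMSC replicate 3 stood apart from the other rcMSC libraries, with a chi-square per degree of freedom of 42.8 and 42.0 against them, where rcMSC replicates 1 and 2 differed by 3.16 and the rbMSC pairs by 2.69 to 2.92. Values are therefore given with and without it where it matters. Markers of other cells moved with the groups. Their calls, from the edgeR test below, are to be read beside the shares of all genes tested. Of these genes 22.6% were higher in rcMSC and 23.2% lower. The summed level of 7 monocyte and macrophage markers was 172 to 251 CPM (counts scaled to library size, with edgeR's TMM factors) in rcMSC and 449.6 to 460.1 CPM in rbMSC, with 4 of 7 lower in rcMSC. For 4 proliferation markers the sums were 94.4 to 97.9 CPM in rcMSC and 220.2 to 227 CPM in rbMSC, with 4 of 4 lower. For 6 osteoblast markers they were 87.3 to 96.4 CPM in rcMSC and 117 to 119 CPM in rbMSC, with 1 higher and 4 lower of 5 tested and Bglap at 0 throughout. For 4 chondrocyte markers they were 107 to 148 CPM in rcMSC and 401 to 414 CPM in rbMSC, with 2 higher and 2 lower. Most of the rbMSC sum was Acan, with means of 22.5 CPM in rcMSC and 325 CPM in rbMSC, and Sox9 was also lower. Higher in rcMSC were Col10a1 (20.1 CPM, against 0.665 in rbMSC) and Col2a1 (14.4 CPM, against 3.24 in rbMSC). The 5 endothelial markers summed to 9.32 to 11.6 CPM in rcMSC and 5.71 to 8.04 CPM in rbMSC, with 1 higher of 4 tested. The MSC surface markers Thy1, Itgb1, Cd44, Nt5e and Eng were all detected and summed to 2574 to 3087 CPM in rcMSC and 3598 to 3637 CPM in rbMSC. Of these 5 surface markers 2 were higher and 3 lower in rcMSC. The part of these markers in the ligand values was not tested, and in bulk RNA fewer cells of a type and less RNA per cell cannot be told apart.

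Bmp5 and Gdf10 were higher in rcMSC, by about the same fold, and Bmp2 and Bmp6 were lower. Bmp3 and Bmp4, the most abundant ligands, and Gdf6 did not pass the threshold, an adjusted p under 0.05 in edgeR's quasi-likelihood test over 14836 genes. Gdf5 and Bmp7 had too few counts to be tested. Of the 7 ligands tested, 4 passed, where 45.8% of all genes tested did. Higher in rcMSC were 2 ligands, against 22.6% of all genes, and lower were 2, against 23.2%. The rcMSC and rbMSC libraries did not overlap in CPM for 4 of the 7, where 57.1% of all genes tested did not, so these counts lie near the background. With rcMSC replicate 3 left out, 6 ligands passed, 4 higher and 2 lower, where 60.1% of all genes passed, 29.9% higher and 30.2% lower. Voom with quality weights, a limma test that weights libraries by their quality, also called 4 ligands higher and 2 lower, where it called 59.2% of all genes, 29.7% higher and 29.6% lower. The median log2 fold change, rcMSC over rbMSC throughout, was 0.13 for the 7 ligands and 0.02 for all genes tested. Bmp5 and Gdf10 both exceeded a log2 fold change of 3, a bound chosen after their values were seen, which 115 genes or 0.775% of those tested did among higher calls. Gdf10 passed the low-count filter through its rcMSC libraries alone, and Bmp5 through 3 rcMSC and 2 rbMSC libraries.

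**Figure D1:**
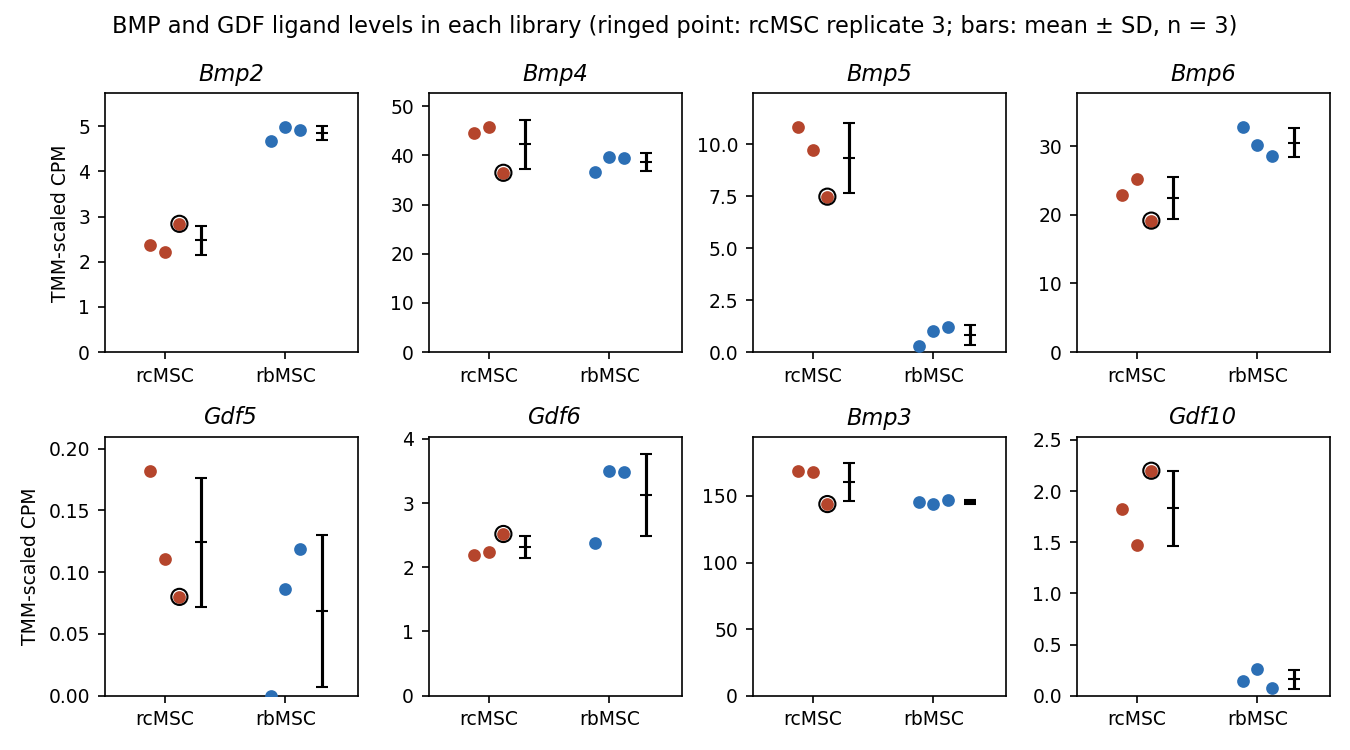
Level of 8 ligands in each library, in TMM-scaled CPM on linear axes from 0, with rcMSC left and rbMSC right in each panel, the mean ± SD (n = 3) beside the points and rcMSC replicate 3 ringed. The groups are apart for Bmp5 and Gdf10 (rcMSC above) and for Bmp2 and Bmp6 (rcMSC below), and Bmp7, with 0 counts in all libraries, is not drawn.

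Bmp5 is the gene of the short ear locus in mice, where its loss alters cartilage and skeletal elements. Positions are in the build mRatBN7.2, in which Bmp5 occupies chromosome 8, bases 76517164 to 76639925. Bmp5 had 297, 264 and 187 counts in rcMSC replicates 1 to 3, against 6, 23 and 31 counts in rbMSC replicates 1 to 3. Scaled, this was 10.8, 9.72 and 7.48 CPM in rcMSC and 0.281, 0.995 and 1.23 CPM in rbMSC. Every rcMSC library lay above every rbMSC library, and rbMSC replicate 1 was the lowest of the 6. The mean was 9.34 ± 1.70 CPM in rcMSC and 0.835 ± 0.494 CPM in rbMSC (n = 3 per group, ± SD), a 10.9-fold difference (log2 fold change 3.45 ± 0.33 SE, adjusted p = 3.61e-05 by edgeR). The log2 fold change was 3.58 without rcMSC replicate 3 and 3.06 without rbMSC replicate 1.

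Bmp6, which in mice is also the liver signal that controls iron uptake, lies on chromosome 17 from 26318569 to 26470365. It went the other way from Bmp5. Bmp6 had 22.9, 25.2 and 19.2 CPM in rcMSC replicates 1 to 3, against 32.7, 30.1 and 28.6 CPM in rbMSC replicates 1 to 3. The groups did not overlap, with rcMSC replicate 2 and rbMSC replicate 3 nearest to each other. The mean was 22.4 ± 3.06 CPM in rcMSC and 30.5 ± 2.10 CPM in rbMSC (n = 3 per group, ± SD), and the log2 fold change was -0.44 ± 0.11 (SE, adjusted p = 0.00657 by edgeR), or -0.34 with rcMSC replicate 3 left out. Bmp7, a factor of kidney and eye development, lies on chromosome 3 from 161516462 to 161716788 and had 0 counts in all 6 libraries. The group totals of 79883304 counts in rcMSC and 69541317 in rbMSC allow, at a floor of 3 counts over the group, up to 0.0376 CPM in rcMSC and 0.0431 CPM in rbMSC, counting error only.

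The balance between Bmp5 and Bmp6 therefore differed between the cultures. Per transcript length, in TPM (counts divided by gene length and scaled to the library), the level of Bmp5 was 46.1%, 37.6% and 38.1% of that of Bmp6 in rcMSC replicates 1 to 3, against 0.836%, 3.22% and 4.19% in rbMSC replicates 1 to 3. Bmp6 remained the more abundant of the pair in every library.

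The promoter windows of the 3 called ligands that have one in the RefSeq table (build GRCr8, 5 of the 9 ligands matched) are shown, so that the genes that rose can be set beside a gene that fell. Each window runs from 250 bases before to 50 bases after the annotated start, 300 bases in all, 5′ to 3′ on the gene's strand. Capitals mark TAATTA, a core read by many homeodomain proteins, GGCGCC, a GC-rich element of SMAD binding, and GGGCGG, the GC box, on either strand. The windows are chr8:85397379-85397678 on the plus strand for Bmp5, chr16:9243262-9243561 on the plus strand for Gdf10 and chr17:26675212-26675511 on the minus strand for Bmp6.
Bmp5: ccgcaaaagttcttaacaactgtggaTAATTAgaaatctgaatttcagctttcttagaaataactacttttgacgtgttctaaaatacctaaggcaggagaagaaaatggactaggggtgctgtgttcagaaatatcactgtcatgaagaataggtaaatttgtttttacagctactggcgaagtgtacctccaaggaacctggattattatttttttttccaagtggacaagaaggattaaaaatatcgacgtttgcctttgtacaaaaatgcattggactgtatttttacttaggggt
Gdf10: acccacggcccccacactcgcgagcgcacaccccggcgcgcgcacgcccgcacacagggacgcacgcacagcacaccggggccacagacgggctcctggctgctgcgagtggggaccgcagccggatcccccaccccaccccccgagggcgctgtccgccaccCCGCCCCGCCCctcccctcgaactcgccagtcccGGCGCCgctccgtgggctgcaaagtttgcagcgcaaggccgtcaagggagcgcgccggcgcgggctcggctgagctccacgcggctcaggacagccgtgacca
Bmp6: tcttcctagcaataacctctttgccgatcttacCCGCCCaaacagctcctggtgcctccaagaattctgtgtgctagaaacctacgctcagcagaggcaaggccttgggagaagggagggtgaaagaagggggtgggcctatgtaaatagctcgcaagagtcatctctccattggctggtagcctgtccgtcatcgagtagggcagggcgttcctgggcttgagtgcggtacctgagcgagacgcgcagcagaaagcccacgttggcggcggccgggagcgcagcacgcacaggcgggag

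These starts are unlike each other in base composition. The Bmp5 window had 35.3% G and C and 5 CpG, the Gdf10 window 76.0% and 39 CpG, and the Bmp6 window 59.3% and 18 CpG, where the median over 33469 rat promoters was 51.7% and 7 CpG. The window of Bmp5 held TAATTA at base 27, a match found in 5.36% of all promoters. That of Gdf10 held GGCGCC at base 198, found in 11.02% of all promoters, and 2 overlapping copies of GGGCGG on the other strand from bases 164 and 169. Bmp6 held GGGCGG on the other strand at base 34, and 33.1% of all promoters held that motif. No motif of the 3 was shared by Bmp5 and Gdf10. Also searched on both strands were GTCTAGAC (0.197% of promoters), TATAAA (14.2%), CANNTG (72.1%) and CCAAT (37.5%). Of these, CANNTG was in Bmp5, and CCAAT was on the other strand in Bmp5 and Bmp6. A match describes the letters alone. Of the other 2 ligands in the promoter table, Bmp3 had 54.7% G and C and Bmp4 65.0%. Neither was called in edgeR with every library kept. Bmp4 held GGGCGG at bases 136, 140 and 161, and both held CANNTG. Whether any motif bears on the ligand levels was not tested. Bmp2, Bmp7, Gdf5 and Gdf6 were the ligands without an entry.

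Bmp2 and Bmp4 are close relatives that drive bone formation and repair. Bmp2 lies on chromosome 3 from 120812882 to 120821397. Bmp2 had 65, 60 and 71 counts in rcMSC replicates 1 to 3, against 100, 115 and 124 counts in rbMSC replicates 1 to 3. This was 2.37, 2.21 and 2.84 CPM in rcMSC and 4.68, 4.98 and 4.91 CPM in rbMSC. The groups were well apart, with rcMSC replicate 3 the nearest of the rcMSC libraries to rbMSC. The mean was 2.47 ± 0.328 CPM in rcMSC and 4.85 ± 0.156 CPM in rbMSC (n = 3 per group, ± SD), so that rcMSC had 0.509 times the rbMSC level (log2 fold change -0.98 ± 0.17 SE, adjusted p = 0.000995 by edgeR). With rcMSC replicate 3 left out, the log2 fold change was -1.08.

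Bmp4, which acts from gastrulation to limb and face outgrowth, lies on chromosome 15 from 19618542 to 19623306. It had 44.5, 45.7 and 36.5 CPM in rcMSC replicates 1 to 3, against 36.5, 39.8 and 39.6 CPM in rbMSC replicates 1 to 3. rcMSC replicates 1 and 2 lay above every rbMSC library, while rcMSC replicate 3 lay just below them all. The log2 fold change of Bmp4 was 0.13 ± 0.09 (SE, adjusted p = 0.277 by edgeR). With rcMSC replicate 3 left out, it was 0.22 ± 0.06 (SE, adjusted p = 0.00226 by edgeR). The level of Bmp2 per length was 10.2%, 9.26% and 14.9% of that of Bmp4 in rcMSC replicates 1 to 3, against 24.5%, 24.0% and 23.8% in rbMSC replicates 1 to 3. In both cultures Bmp4 was thus the larger of the pair, by a wider margin in rcMSC.

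Gdf5 and Gdf6 are joint-forming factors in mice, and Gdf6 also acts at the coronal suture of the mouse skull. Gdf6 lies on chromosome 5 from 22996246 to 23012567. It had 60, 61 and 63 counts in rcMSC replicates 1 to 3, against 51, 81 and 88 counts in rbMSC replicates 1 to 3. In CPM these were 2.18, 2.25 and 2.52 in rcMSC and 2.39, 3.50 and 3.49 in rbMSC. The level in rbMSC replicate 1 lay within the rcMSC range, while the other 2 rbMSC libraries lay above it. The log2 fold change of Gdf6 was -0.44 ± 0.21 (SE, adjusted p = 0.112 by edgeR), the size of that of Bmp6 with a larger error. Its edgeR adjusted p was 0.0515 without rcMSC replicate 3 and 0.0503 without rbMSC replicate 1. Gdf5, on chromosome 3 from 144454338 to 144458612, shares exon bases with an unnamed gene on the opposite strand, so its few reads may belong to either. It had 5, 3 and 2 counts in rcMSC replicates 1 to 3, against 0, 2 and 3 counts in rbMSC replicates 1 to 3. The ratio of rcMSC to rbMSC was 1.74, with an exact binomial 95% interval of 0.542 to 6.49 that covers counting error only, so no difference was detectable at this depth.

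Bmp3 and Gdf10, also known as Bmp3b, form the most divergent pair. Bmp3 is known in mice as an inhibitor of bone formation. It lies on chromosome 14 from 10712489 to 10737153. Bmp3 had 4640, 4562 and 3600 counts in rcMSC replicates 1 to 3, against 3111, 3324 and 3719 counts in rbMSC replicates 1 to 3. This came to 169, 168 and 144 CPM in rcMSC and 146, 144 and 147 CPM in rbMSC. rcMSC replicates 1 and 2 lay above every rbMSC library, and rcMSC replicate 3 lay within the rbMSC range. The mean was 160.3 ± 14.2 CPM in rcMSC and 146 ± 1.75 CPM in rbMSC (n = 3 per group, ± SD), and the log2 fold change was 0.14 ± 0.07 (SE, adjusted p = 0.125 by edgeR). With rcMSC replicate 3 left out, it was 0.21 ± 0.04 (SE, adjusted p = 1.85e-05 by edgeR).

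Gdf10, on chromosome 16 from 9237261 to 9249343, was scarce where Bmp3 was abundant. It had 50, 40 and 55 counts in rcMSC replicates 1 to 3, against 3, 6 and 2 counts in rbMSC replicates 1 to 3. These were 1.82, 1.47 and 2.20 CPM in rcMSC and 0.140, 0.260 and 0.0792 CPM in rbMSC. All rcMSC libraries lay far above the rbMSC libraries, which rest on 2 to 6 counts each, and rcMSC replicate 3 was the highest. The mean was 1.83 ± 0.363 CPM in rcMSC and 0.160 ± 0.0917 CPM in rbMSC (n = 3 per group, ± SD), an 11.2-fold difference (log2 fold change 3.49 ± 0.41 SE, adjusted p = 7.66e-05 by edgeR). Its log2 fold change was 3.34 without rcMSC replicate 3, 4.03 without rbMSC replicate 2 and 3.15 without rbMSC replicate 3. The level of Gdf10 per length was 1.01%, 0.822% and 1.43% of that of Bmp3 in rcMSC replicates 1 to 3, against 0.0904%, 0.169% and 0.0504% in rbMSC replicates 1 to 3.

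**Figure D2:**
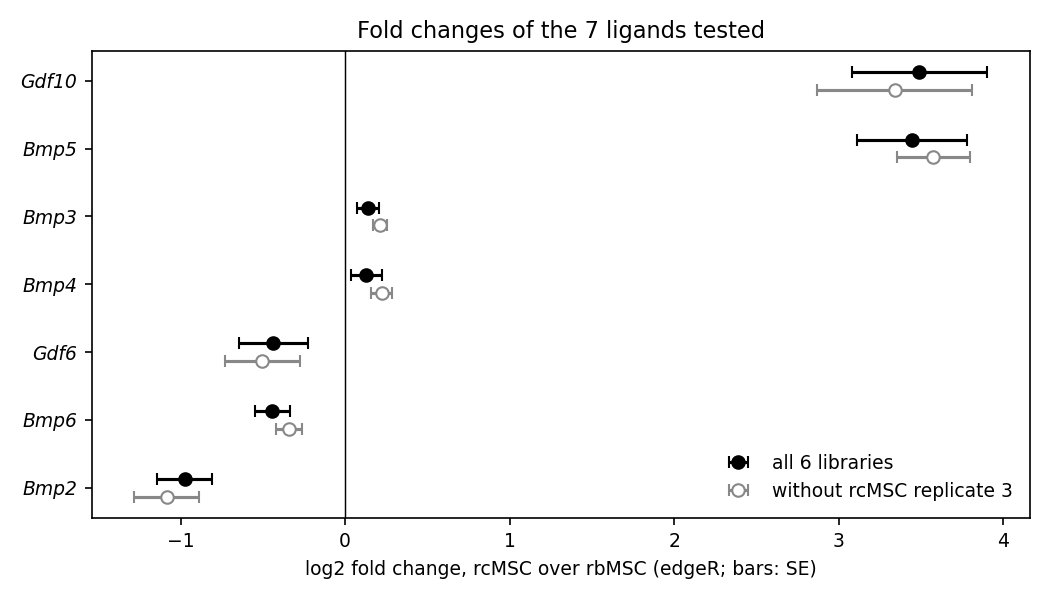
Log2 fold change, rcMSC over rbMSC, of the 7 ligands tested, with SE bars, from all 6 libraries (filled) and without rcMSC replicate 3 (open). Gdf10 (3.49) and Bmp5 (3.45) stand far from the other 5, and Bmp3 and Bmp4 move away from 0 when rcMSC replicate 3 is left out.

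Set side by side per length, Bmp3 was the main ligand transcript in both cultures. In rcMSC the order was Bmp3 (247.8 ± 20.3 TPM, SD, n = 3), Bmp4 (61.4 ± 6.85 TPM), Bmp6 (21.6 ± 2.76 TPM), Bmp5 (8.80 ± 1.57 TPM), Bmp2 (6.90 ± 0.976 TPM), Gdf6 (5.14 ± 0.431 TPM), Gdf10 (2.66 ± 0.551 TPM) and Gdf5 (0.186 ± 0.0787 TPM). In rbMSC it was Bmp3 (241.8 ± 2.21 TPM, SD, n = 3), Bmp4 (60.4 ± 2.58 TPM), Bmp6 (31.7 ± 2.37 TPM), Bmp2 (14.5 ± 0.422 TPM), Gdf6 (7.44 ± 1.496 TPM), Bmp5 (0.843 ± 0.496 TPM), Gdf10 (0.249 ± 0.143 TPM) and Gdf5 (0.110 ± 0.0986 TPM). The first 3 places were the same, and Bmp5 stood in the fourth place in rcMSC, against the sixth in rbMSC. Neighbours whose libraries overlapped were Bmp5 and Bmp2 in rcMSC, and Bmp5 and Gdf10, and Gdf10 and Gdf5, in rbMSC. Gdf5 and Bmp7 could not be ordered in rbMSC, where Gdf5 was at 0 in replicate 1. Among all 30498 genes Bmp3 ranked 584 by TPM in rcMSC and 607 in rbMSC.

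The summed level of the 9 ligands was 373, 370 and 321 TPM in rcMSC replicates 1 to 3, against 355, 358 and 358 TPM in rbMSC replicates 1 to 3. The rcMSC libraries lay on both sides of the rbMSC range. Bmp3 made up 69.9% ± 0.274 of the sum in rcMSC and 67.7% ± 0.793 in rbMSC (n = 3 per group, ± SD), and Bmp4 17.3% ± 0.575 in rcMSC and 16.9% ± 0.647 in rbMSC. Bmp5 made up 2.47% ± 0.260 in rcMSC and 0.236% ± 0.138 in rbMSC, and Gdf10 0.761% ± 0.220 in rcMSC and 0.0698% ± 0.0401 in rbMSC. Bmp6 made up 6.09% ± 0.382 in rcMSC and 8.87% ± 0.708 in rbMSC, and Bmp2 1.97% ± 0.454 in rcMSC and 4.07% ± 0.102 in rbMSC. Among the 9 ligands, the shares of the groups did not overlap for these 4 and for Bmp3. In CPM, a different measure from these shares, 57.1% of all genes tested did not overlap. The shares within a library depend on each other, and the groups did overlap in the CPM of Bmp3.

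**Figure D3:**
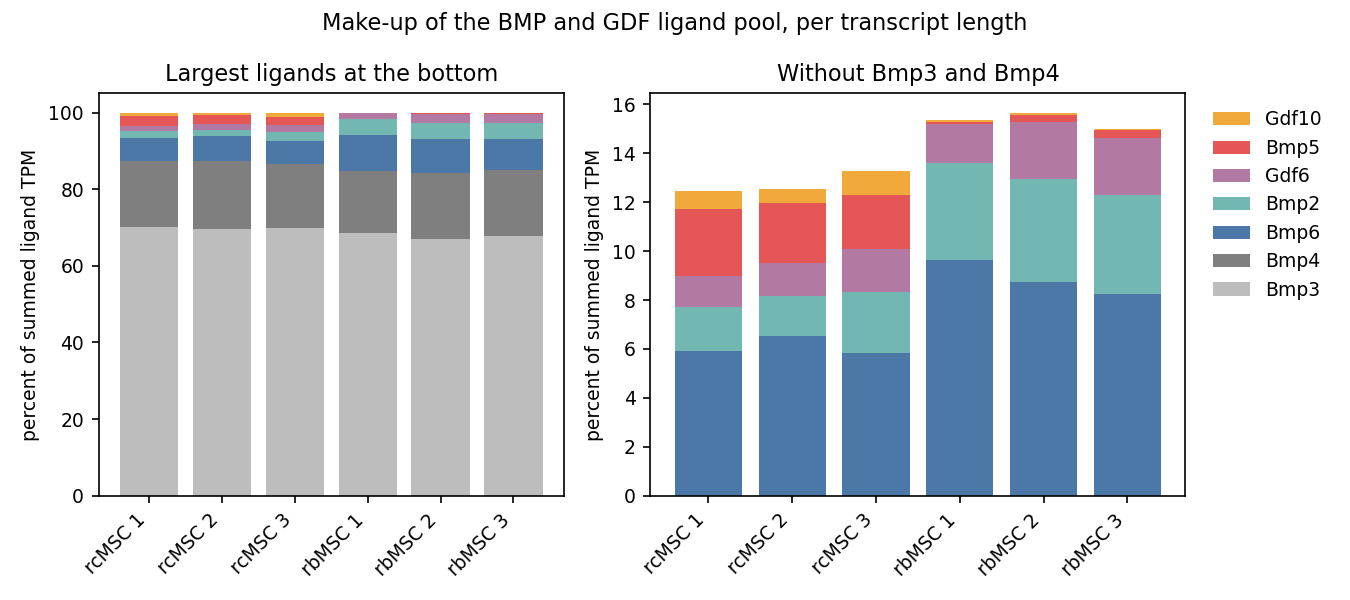
Percent of the summed ligand TPM taken by each ligand in each library, for 7 ligands on the left and without Bmp3 and Bmp4 on the right, rcMSC before rbMSC, bars stacked from 0 (Gdf5, under 0.1% throughout, and Bmp7 are not drawn). Bmp3 takes 69.9% in rcMSC and 67.7% in rbMSC, while the slices of Bmp5 and Gdf10 are visible mainly in rcMSC.

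By the root mean square difference between centred log2 CPM profiles over the 6 libraries, among 11016 genes, the genes most like Bmp3, the ligand with the highest CPM, were Suz12 (0.0134), N4bp1 (0.0183) and Tiprl (0.0188). Their log2 fold changes were 0.12, 0.13 and 0.14, and none passed the threshold. Both follow largely from choosing genes by their likeness to Bmp3, and a link between these genes and Bmp3 was not tested.

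The genes that receive, cut and block the ligands were called in both directions, and their counts are to be read beside the 22.6% of all genes tested that were higher and the 23.2% that were lower. Of 7 receptors 3 were higher and 2 lower, with a median log2 fold change of 0.18. Only 1 was lower when any library but rbMSC replicate 2 was left out. Only 2 were higher without rcMSC replicate 1 or 2, or without rbMSC replicate 1 or 3. The type I receptors Bmpr1b (1.55, edgeR adjusted p = 1.98e-05) and Bmpr1a (0.50, edgeR adjusted p = 0.000128) rose, and Acvrl1, a type I receptor best known from endothelium, fell by 1.09 on the log2 scale (edgeR adjusted p = 0.000199). Of 6 co-receptors tested 4 were higher and 1 lower (median 0.66), with Rgma, a co-receptor for Bmp2 and Bmp4, at 1.22 (edgeR adjusted p = 8.36e-05), Tgfbr3 at 0.94 and Eng at 0.88. Of the 15 secreted antagonists 11 were tested, 5 were higher and 2 lower (median 0.27, or -0.04 without rcMSC replicate 3), and 3 were higher without rbMSC replicate 1. Chrdl1 and Chrd, which bind ligands outside the cell, rose by 2.42 and 2.18 on the log2 scale (edgeR adjusted p = 1.78e-07 and 5.69e-08), while Bmper fell by 3.01 (edgeR adjusted p = 1.74e-08).

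Of 8 SMADs and SMAD ligases 4 were lower, where 23.2% of all genes were, and 0 higher in edgeR, where 22.6% were (median -0.45), led by Smad9 (-1.44, edgeR adjusted p = 0.00676), the inhibitory Smad7 (-1.28) and the ligase Smurf1 (-0.90). Without rcMSC replicate 3, 6 of the 8 were lower and 0 higher, where 30.2% of all genes were lower and 29.9% higher. With any other library left out, 3 of the 8 were lower. The count was also 3 without the low-count filter and with the gene length trend removed. Of 6 proteases tested 3 were higher and 3 lower (median -0.05), or 2 and 2 with any rbMSC library left out. The convertase Pcsk5 rose by 2.72 (edgeR adjusted p = 1.12e-09) and Pcsk6 by 0.90, and Tll1, a protease of the tolloid family that cleaves chordin, fell by 2.91 on the log2 scale (edgeR adjusted p = 6.05e-08). Of 12 BMP target genes 2 were higher and 3 lower (median -0.41), or 2 and 7 without rcMSC replicate 3, beside the same shares of all genes. Msx2 rose by 1.85 and Id3 fell by 1.17 on the log2 scale (edgeR adjusted p = 0.000163 and 0.000226). The osteoblast factor Sp7 was at -2.19 (edgeR adjusted p = 0.0161), or -3.58 without rcMSC replicate 3. Sp7 no longer passed the threshold without rcMSC replicate 2 (edgeR adjusted p = 0.0537), and it had only 46 counts in rcMSC, against 187 in rbMSC. Runx2, also an osteoblast factor, went the other way, at 0.71 (edgeR adjusted p = 5.95e-05). Alpl was lower, at -0.39 (edgeR adjusted p = 0.0101). Of 20 other ligands of the superfamily 9 were tested, 1 was higher, Inhbb (0.82), and 4 lower (median -0.32), with Tgfb3 (-1.76) and Tgfb2 (-1.58) the furthest down. The median of all genes tested was 0.02.

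**Figure D4:**
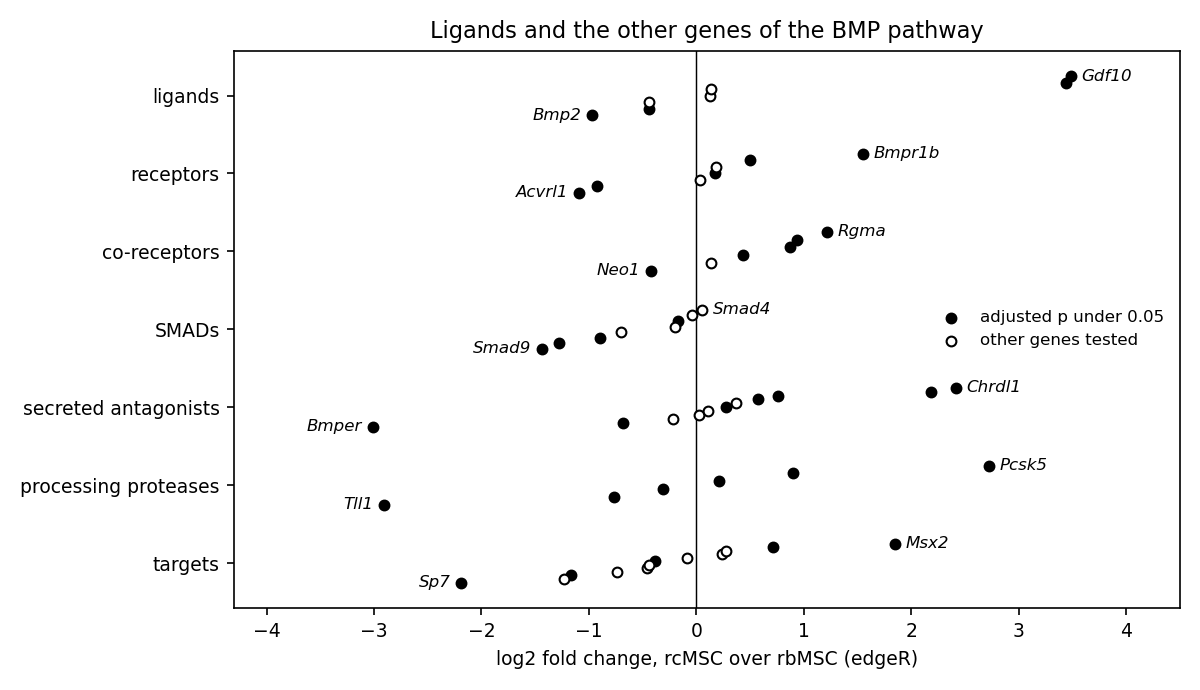
Log2 fold change, rcMSC over rbMSC, of each tested gene in the ligand list and in 6 lists of the BMP pathway, filled where the edgeR adjusted p was under 0.05, with the lowest and highest gene of each list named. Points lie on both sides of 0 in every list, and among the SMADs the filled points all lie below 0.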

How the data were processed

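RNA from 3 rcMSC and 3 rbMSC libraries was sequenced as paired reads of 150 nt. According to the labels' protocols, trimming used Trim Galore 0.6.7 and Trimmomatic 0.39, mapping to mRatBN7.2 used STAR 2.7.9a, and the authors deposited a table of raw counts per gene made with featureCounts 2.0.1. The submitters' processing notes name DESeq2 1.20.0. No source used here gives the strand or multimapping setting, so reads of overlapping antisense genes cannot be told apart.

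Counts were tested with edgeR 4.0.16 in R 4.3.3 (quasi-likelihood F test, TMM, filterByExpr, robust fit), and p-values were adjusted by Benjamini-Hochberg across 14836 genes. An SE is the log2 fold change over the square root of F. TPM was computed from the counts and the deposited gene length. The script was tested on simulated counts of this comparison with 14836 genes, in which edgeR called 16% of 1.25-fold, 62% of 1.5-fold, 82% of 2-fold and 100% of 4-fold changes. The simulation gave every gene the same spread and had no outlying library such as rcMSC replicate 3. Its rates therefore check the script and do not give the sensitivity for the ligands.

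The ligands and the pathway and marker lists were chosen with earlier results of these data known. All 9 ligands are named, and from each pathway list the 3 called genes of largest change whose mean log2 CPM was 0 or more. Runx2 and Alpl, the other called targets, are named in addition. Of 116 listed symbols 113 were in the table. Alternatives were other scalings, filters and tools (DESeq2 1.42.0, limma 3.58.1 voom), a replicate block, removal of the gene length trend, RPKM for TPM, and leaving out each library.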

Additional observations from a re-analysis of the deposited data

How the results depend on the processing

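Bmp2, Bmp5, Bmp6 and Gdf10 kept their direction and their call, and Gdf6 its direction without a call, under all 9 alternative fits and with any library left out. Bmp3 and Bmp4 passed the threshold with limma voom and quality weights (log2 fold changes 0.19 and 0.20, limma adjusted p = 0.00196 and 0.0142), which gave rcMSC replicate 3 a weight of 0.222, and without that library; the cause was not tested. The count of ligands higher in rcMSC was then 4, against 2. With 1 library left out, the count was 2 to 4, the log2 fold change was 0.10 to 0.21 for Bmp3 and 0.072 to 0.22 for Bmp4, and edgeR called 5336 to 9070 genes. The order of the 9 ligands by group mean per length was the same with any library left out. It was also the same with RPKM, but RPKM divides by the same gene length and cannot change the order within a library. In rcMSC replicate 3 by itself, Bmp2 (7.99 TPM) stood above Bmp5 (7.11 TPM).

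The labels do not state that the replicate numbers pair the libraries. Deviations from the group mean were correlated across genes. Same-numbered libraries gave -0.0919, 0.00425 and -0.100, and the others -0.107 to 0.128. Deviations from a mean of 3 libraries depend on each other, so these values cannot decide whether the libraries are paired. With the replicate number as a block, edgeR called 6297 genes, against 6796 without it, and 4 ligands in either fit.

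Among the pathway lists, targets lower in rcMSC numbered 7 with voom, against 3. Receptors lower numbered 1 without the low-count filter, with DESeq2 or with the block, against 2. Other superfamily ligands higher numbered 3 without the filter, against 1, and secreted antagonists higher 3 without rbMSC replicate 1, against 5. Receptors lower were 1 with any library but rbMSC replicate 2 left out. Low counts limit Gdf10 in rbMSC, Gdf5 and Bmp7.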
